A study of Mus musculus with 36 samples.

Results

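Oligodendrocytes are the glial cells that wrap axons of the brain in myelin, and 31 genes that mark the lineage from its precursor cells to mature myelin were followed across all libraries of the study. The genes were chosen by symbol. All 31 were found among the 56184 rows of the deposited count table and in the deposited table of scaled counts, and all 31 passed the filter on low counts that left 16255 genes for testing. The set has 5 precursor genes, 7 genes of committed and premyelinating cells and 19 genes of mature myelin-forming cells. RNA came from 10 mg of brain tissue from mice at postnatal day 19. The mice were wild type (WT) or knockouts of Gpt2 (KO), the gene of the alanine transaminase of mitochondria, an enzyme that links pyruvate and glutamate to alanine and α-ketoglutarate. They received vehicle or the dimethyl ester of α-ketoglutarate (dm-αKG, a form that enters cells) by intraperitoneal injection at 600 mg per kg. There were 10 libraries of wild-type mice on vehicle (called WT-Veh), 8 of wild-type mice on dm-αKG (WT-aKG), 10 of knockouts on vehicle (KO-Veh) and 8 of knockouts on dm-αKG (KO-aKG). Neither the brain region sampled, the strain and sex of the mice, the deleted piece of Gpt2 nor the times of injection is given in the sources used here. The labels name no promoter or cell type for the knockout. The submitters call the replicates biological, and no label states that each library came from a separate animal, so a p-value measures the spread between these libraries.

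In the forebrain and hindbrain, oligodendrocyte precursor cells divide, migrate and then stop dividing as they commit to differentiation. The transcription factors Olig1, Olig2 and Sox10 act throughout the lineage, Pdgfra is the receptor through which platelet-derived growth factor keeps precursors dividing, and Cspg4 is their NG2 proteoglycan. Gpr17, a receptor of the committed stage, is switched off again before myelin forms. Myrf then turns on the genes of myelin proteins such as Mbp, which compacts the membrane, Mog and Mag, which lie on its outer and inner faces, and Cnp. Ugt8a and Fa2h make the galactolipids of the membrane. In young mice this programme runs earlier in the hindbrain than in the cortex.

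The promoters of 5 members are printed because they stand for the early and late ends of the lineage and hold letters of the motifs of its transcription factors. They were chosen after the values below were seen. Each line gives the 250 bases before the RefSeq start of the gene, 5′ to 3′ on the gene's strand, in build GRCm38.p6. Capitals mark matches on either strand to a SOX motif (ACAAAG or AACAAT), a MYRF motif (CTGGCAC or CTGGTAC) or an OLIG2 E-box (CAGATG or CATATG). The windows are chr5:75152001-75152250 on the plus strand for Pdgfra, chrX:101376126-101376375 on the plus strand for Gjb1, chr7:30914923-30915172 on the minus strand for Mag, chr17:37023399-37023648 on the minus strand for Mog and chr11:73324638-73324887 on the minus strand for Aspa. None of the 5 windows overlaps an annotated exon.
Pdgfra: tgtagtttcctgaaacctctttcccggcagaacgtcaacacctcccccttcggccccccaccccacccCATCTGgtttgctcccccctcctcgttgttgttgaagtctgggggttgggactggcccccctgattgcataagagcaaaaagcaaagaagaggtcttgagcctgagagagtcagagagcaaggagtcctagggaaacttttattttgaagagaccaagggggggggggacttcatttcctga
Gjb1: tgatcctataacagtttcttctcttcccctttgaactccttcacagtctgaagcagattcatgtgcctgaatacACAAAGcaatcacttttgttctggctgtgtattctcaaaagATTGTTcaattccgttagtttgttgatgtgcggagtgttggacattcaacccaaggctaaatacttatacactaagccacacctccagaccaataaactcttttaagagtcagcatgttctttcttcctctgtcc
Mag: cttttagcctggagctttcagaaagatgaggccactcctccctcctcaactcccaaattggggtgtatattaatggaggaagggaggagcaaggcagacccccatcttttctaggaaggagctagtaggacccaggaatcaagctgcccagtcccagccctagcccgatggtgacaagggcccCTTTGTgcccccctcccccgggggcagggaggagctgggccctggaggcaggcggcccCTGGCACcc
Mog: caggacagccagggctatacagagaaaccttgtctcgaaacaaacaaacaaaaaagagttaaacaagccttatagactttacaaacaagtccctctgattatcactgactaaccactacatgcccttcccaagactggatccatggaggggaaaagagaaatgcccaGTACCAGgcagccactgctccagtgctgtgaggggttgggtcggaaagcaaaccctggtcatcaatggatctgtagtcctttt
Aspa: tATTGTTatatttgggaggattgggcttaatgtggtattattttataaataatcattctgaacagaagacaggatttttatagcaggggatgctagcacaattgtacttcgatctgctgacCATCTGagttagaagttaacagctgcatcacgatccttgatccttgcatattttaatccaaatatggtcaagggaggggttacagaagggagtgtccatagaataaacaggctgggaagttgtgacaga
Pdgfra, the precursor receptor, holds 1 OLIG2 E-box. Gjb1, a gap junction connexin of mature oligodendrocytes, holds 2 SOX matches. Mag holds 1 SOX and 1 MYRF match, Mog holds 1 MYRF match, and Aspa, which splits N-acetylaspartate, holds 1 SOX match and 1 OLIG2 E-box. No 2 matches overlap in these windows. RefSeq promoter entries were found for 22 of the 31 members. The 250 bases before the start were searched in every entry of a gene, so a gene with more entries has more chances to match. The printed window is that of the most upstream entry, and Gjb1 counts below among the genes with an E-box through another entry. A SOX match was present in 13 of the 22 (59.1%), against 26.8% of 27025 genes with an entry. A MYRF match was present in 3 of 22, which are Cnp, Mag and Mog (13.6%, against 6.79% of all genes), and an OLIG2 E-box in 9 of 22 (40.9%, against 19.4%). A match is a run of letters and not a measured binding site.

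The labels and the tissue were checked first. Gpt2 lay between 22.04 and 39.0 CPM (counts of a gene scaled to a common library total) in WT-Veh and between 0.881 and 3.30 in KO-Veh. With dm-αKG it lay between 26.3 and 38.1 CPM in WT and between 1.12 and 3.18 in KO. The groups of the 2 genotypes did not overlap. The total counts of a library ran from 5768225 to 13267397. The libraries differed in the brain regions they represent. A cerebellum score, the mean log2 CPM of cerebellar marker genes, ranged from 1.08 to 7.08. A hindbrain score, built in the same way from Hox genes and other markers of the hindbrain and spinal cord, ranged from −2.07 to 4.87. The cerebellum score was high (over the mean of the libraries by more than 1 log2 unit) in 1 library of each KO group, 3 of WT-Veh and 4 of WT-aKG. The hindbrain score was high (over its mean by more than 2 units) in 4 libraries of KO-aKG and 0 of KO-Veh, and in 2 of WT-aKG and 1 of WT-Veh. These region markers are therefore unevenly spread over the groups, and the differences between groups are set beside fits that hold these scores or leave these libraries out.

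Together the 31 members made up 0.320% to 3.29% of the counts of a library, and Mbp alone 0.190% to 2.22%. All 31 had counts in each of the 36 libraries. The spread between libraries was wide for most members. From the lowest to the highest of the 36 libraries, CPM differed 17.1-fold for Ugt8a, 16.7-fold for Fa2h, 16.2-fold for Gjb1 and 11.49-fold for Mbp, against 2.51-fold for Frmd4a, 3.23-fold for Qdpr, 4.28-fold for Car2 and 4.68-fold for Pdgfra. The same few libraries stood at the top for most members. WT-Veh replicate 2 was among the 5 highest libraries for 29 of the 31 members and the highest of all for 19 of them. WT-aKG replicate 8 was among the 5 highest for 27 members and KO-aKG replicate 8 for 25. All of these libraries had a high hindbrain score. Of the others with a high score, WT-aKG replicate 7 was among the 5 highest for 18 members and KO-aKG replicate 6 for 16. KO-aKG replicate 7 was among them for 1 member and KO-aKG replicate 4 for 0.

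**Figure D1:**
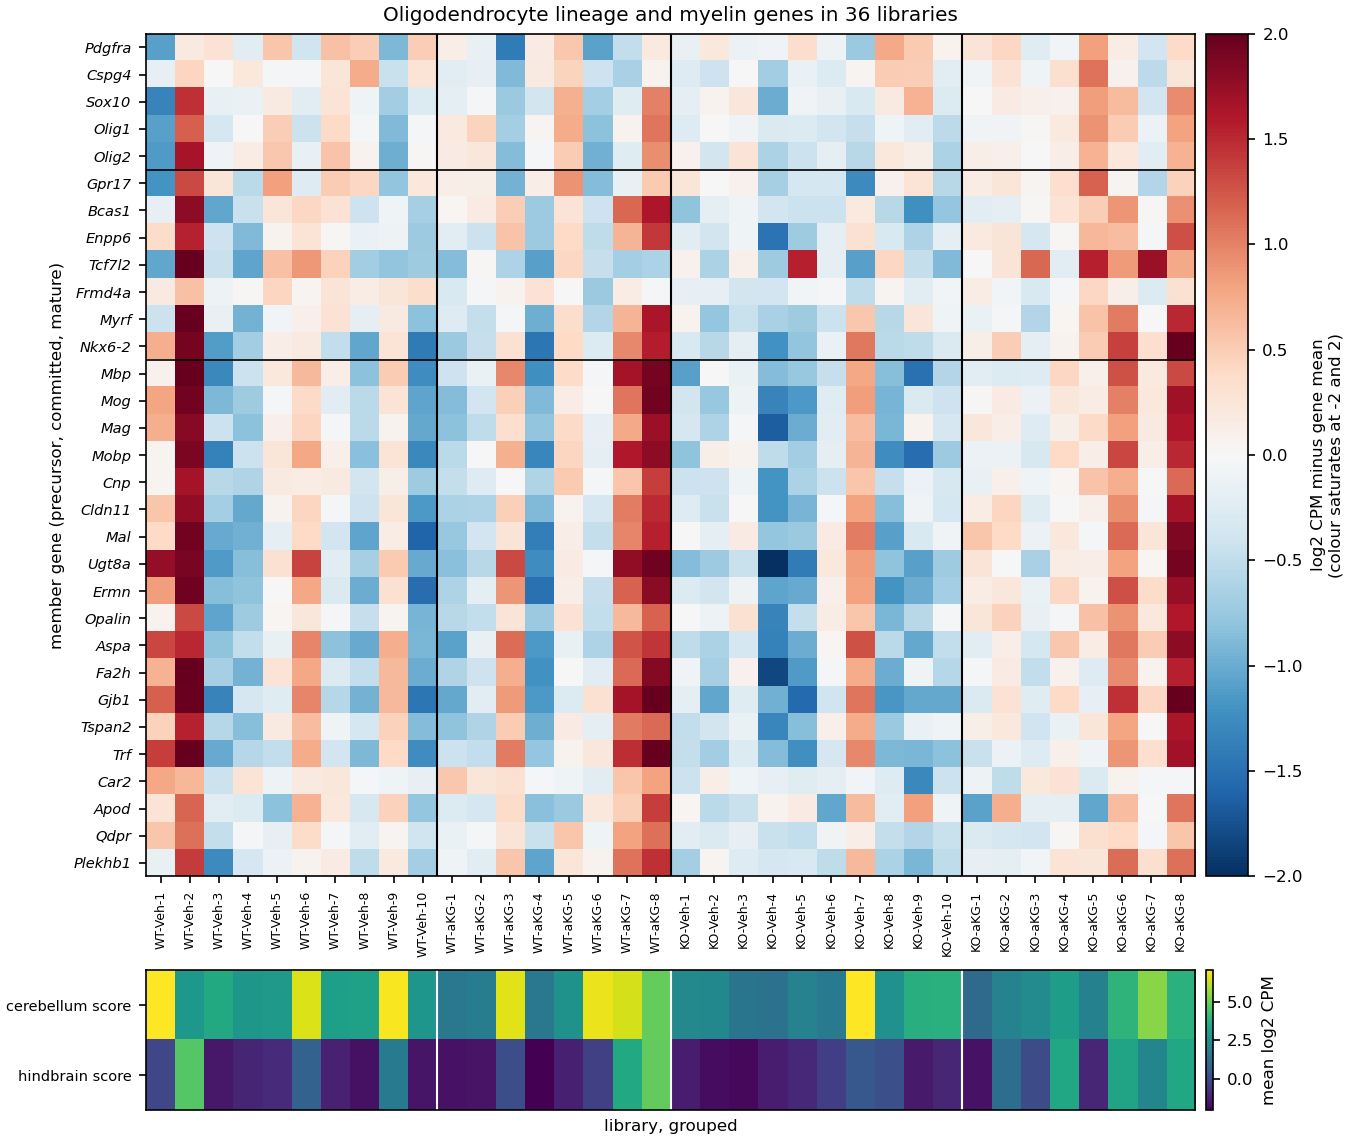
Level of each of the 31 members (rows, ordered by stage) in each of the 36 libraries (columns, ordered by group), as the log2 difference from the member's mean over all libraries, with the cerebellum and hindbrain scores of each library below; the colour saturates at differences of −2 and 2. WT-Veh replicate 2, WT-aKG replicate 8 and KO-aKG replicate 8 are high across most rows, while the precursor gene Pdgfra is low in 8 of the 9 libraries with a high cerebellum score, the other being WT-aKG replicate 8.

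The levels were then averaged by stage. The precursor score, the mean log2 CPM of the 5 precursor members, was 4.38 ± 0.56 in WT-Veh (SD, n = 10), 4.30 ± 0.56 in WT-aKG (SD, n = 8), 4.27 ± 0.28 in KO-Veh (SD, n = 10) and 4.60 ± 0.37 in KO-aKG (SD, n = 8). The committed score was 4.27 ± 0.66, 4.25 ± 0.52, 3.96 ± 0.19 and 4.61 ± 0.40 in the same order. The mature score was 6.55 ± 0.82, 6.73 ± 0.86, 6.15 ± 0.48 and 6.87 ± 0.57. KO-Veh had the lowest and KO-aKG the highest mean at all 3 stages. In whole tissue, fewer cells of the lineage and less RNA per cell cannot be told apart. The libraries of all group pairs overlapped at each stage, except that every committed score of KO-Veh (at most 4.15) lay below those of KO-aKG (at least 4.23). In the libraries that were high in neither region score (9 of KO-Veh, 6 of WT-Veh and 4 of each dm-αKG group), the mature score was 6.02 ± 0.38 in WT-Veh, 6.13 ± 0.45 in WT-aKG, 6.02 ± 0.30 in KO-Veh and 6.51 ± 0.15 in KO-aKG. There the mature means of WT-Veh and KO-Veh lay within 1 SD of each other. The committed scores of KO-Veh reached at most 4.12 in these libraries and those of KO-aKG began at 4.23. These libraries were not matched for region. The hindbrain scores of the 4 KO-aKG libraries were −1.63, −1.09, 0.019 and 1.24, against −1.86 to 0.17 in the 9 of KO-Veh. No test was made on the stage scores.

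**Figure D2:**
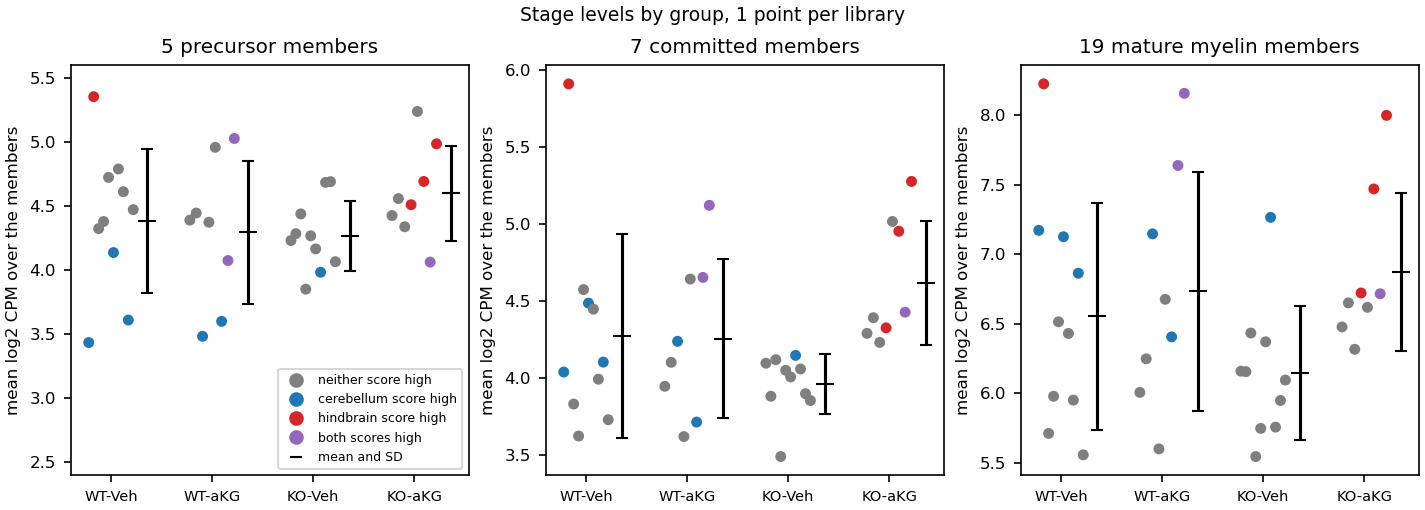
Precursor, committed and mature scores (mean log2 CPM of the members of the stage) of each library by group, with colours for libraries high in cerebellum or hindbrain markers and the group mean ± SD. The groups overlap, except that the committed scores of KO-Veh, at most 4.15, lie below those of KO-aKG, and the highest mature score, 8.22, belongs to WT-Veh replicate 2, a library high in hindbrain markers.

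The effect of the knockout under vehicle was compared first. Nearly all members had lower mean levels in KO-Veh than in WT-Veh, and 1 of the 31 passed the test. This was Frmd4a, a scaffold protein of cell polarity listed here with the committed genes (chr2:4017717-4614043 on the plus strand in the annotation of GRCm38). Its CPM ran from 15.3 through a median of 19.0 to 24.7 in WT-Veh and from 11.52 through 14.7 to 17.0 in KO-Veh. The ranges overlapped, and the KO-Veh median lay below the lowest WT-Veh library. The log2 fold change was −0.41 (SE 0.11, adjusted p = 0.0205 by edgeR's quasi-likelihood test over all 16255 genes). Of all genes tested, 4.31% passed in this comparison, so 1 of 31 is near the background. The call is lost without WT-Veh replicate 2, and without the libraries high in hindbrain markers, where it is −0.36 (adjusted p = 0.0768 by edgeR). It is also lost with no filter on low counts (adjusted p = 0.0563 by edgeR) and with limma on the deposited CPM (adjusted p = 0.188 with a pseudocount of 0.5 and 0.19 with 1).

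Below the threshold, 30 of 31 members had a log2 fold change under 0, with a median of −0.46. Over all genes 53.3% lay under 0 and the median was −0.024. The share of members with an unadjusted p under 0.05, 6 of 31 (19.4%), was close to the 21.0% of all genes. The members move together across libraries, so their shared sign is not 31 separate observations. The median was −0.20 for precursor, −0.43 for committed and −0.60 for mature members. Among precursor members the largest differences were those of the transcription factors Olig2 (−0.44, SE 0.25) and Olig1 (−0.32, SE 0.22). Olig2 ran from 10.0 through 22.6 to 68.7 CPM in WT-Veh and from 14.0 through 18.2 to 26.4 in KO-Veh. Olig1 ran from 72.9 through 152 to 356 CPM in WT-Veh and from 108 through 129 to 155 in KO-Veh. For both genes the KO-Veh range lay inside the WT-Veh range.

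Among committed members the largest differences were those of Bcas1, a marker of oligodendrocytes that begin to myelinate, and Myrf. Bcas1 ran from 46.3 through 87.6 to 330 CPM in WT-Veh and from 40.8 through 71.0 to 110 in KO-Veh (log2 fold change −0.63, SE 0.28, adjusted p = 0.195 by edgeR). Myrf ran from 4.56 through 8.22 to 36.3 CPM in WT-Veh and from 5.13 through 6.47 to 12.8 in KO-Veh (−0.49, SE 0.33). Among mature members Ugt8a and Gjb1 differed most. Ugt8a ran from 33.7 through 77.4 to 276 CPM in WT-Veh and from 16.7 through 43.5 to 132 in KO-Veh (−1.11, SE 0.44, adjusted p = 0.142 by edgeR). Gjb1 ran from 2.49 through 5.54 to 26.6 CPM in WT-Veh and from 2.31 through 3.41 to 14.3 in KO-Veh (−0.85, SE 0.47). The high ends in WT-Veh are set by few libraries, and none of these 4 genes passed the test. The precursor receptor Pdgfra differed by 0.017 (SE 0.22), with 7.72, 19.2 and 24.4 CPM as lowest, median and highest in WT-Veh and 9.75, 16.3 and 27.49 in KO-Veh.

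With the cerebellum score as a covariate, Frmd4a was again the member that passed (−0.46, SE 0.11, adjusted p = 0.00744 by edgeR), against 6.0% of all genes. It passed with each of the 36 libraries left out in turn, and not without the 9 libraries high in cerebellum markers (adjusted p = 0.0591 by edgeR) or with limma. Of the members, 30 of 31 lay under 0, with a median of −0.40. The median of the mature members moved from −0.60 to −0.40 and that of the precursor members from −0.20 to −0.28. With the cerebellum and hindbrain scores both as covariates, a fit added after the data were seen, Frmd4a still passed (−0.45, adjusted p = 0.00587 by edgeR; 6.63% of all genes passed). There the members' median was −0.15, with 25 of 31 under 0, and that of the mature members was −0.088. Leaving out the 9 libraries high in cerebellum markers, with no covariate, gave a median of −0.57, with 31 of 31 under 0. Leaving out the 7 libraries high in hindbrain markers gave a median of −0.21, and doing so with the cerebellum score as covariate gave 0.033, with 13 of 31 under 0. With scores of 5 regions as covariates, 3 members were lower, against 6.02% of all genes lower. They were Frmd4a (−0.43), Gpr17 (−0.66, adjusted p = 0.00555 by edgeR) and Olig2 (−0.49, adjusted p = 0.0285 by edgeR).

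**Figure D3:**
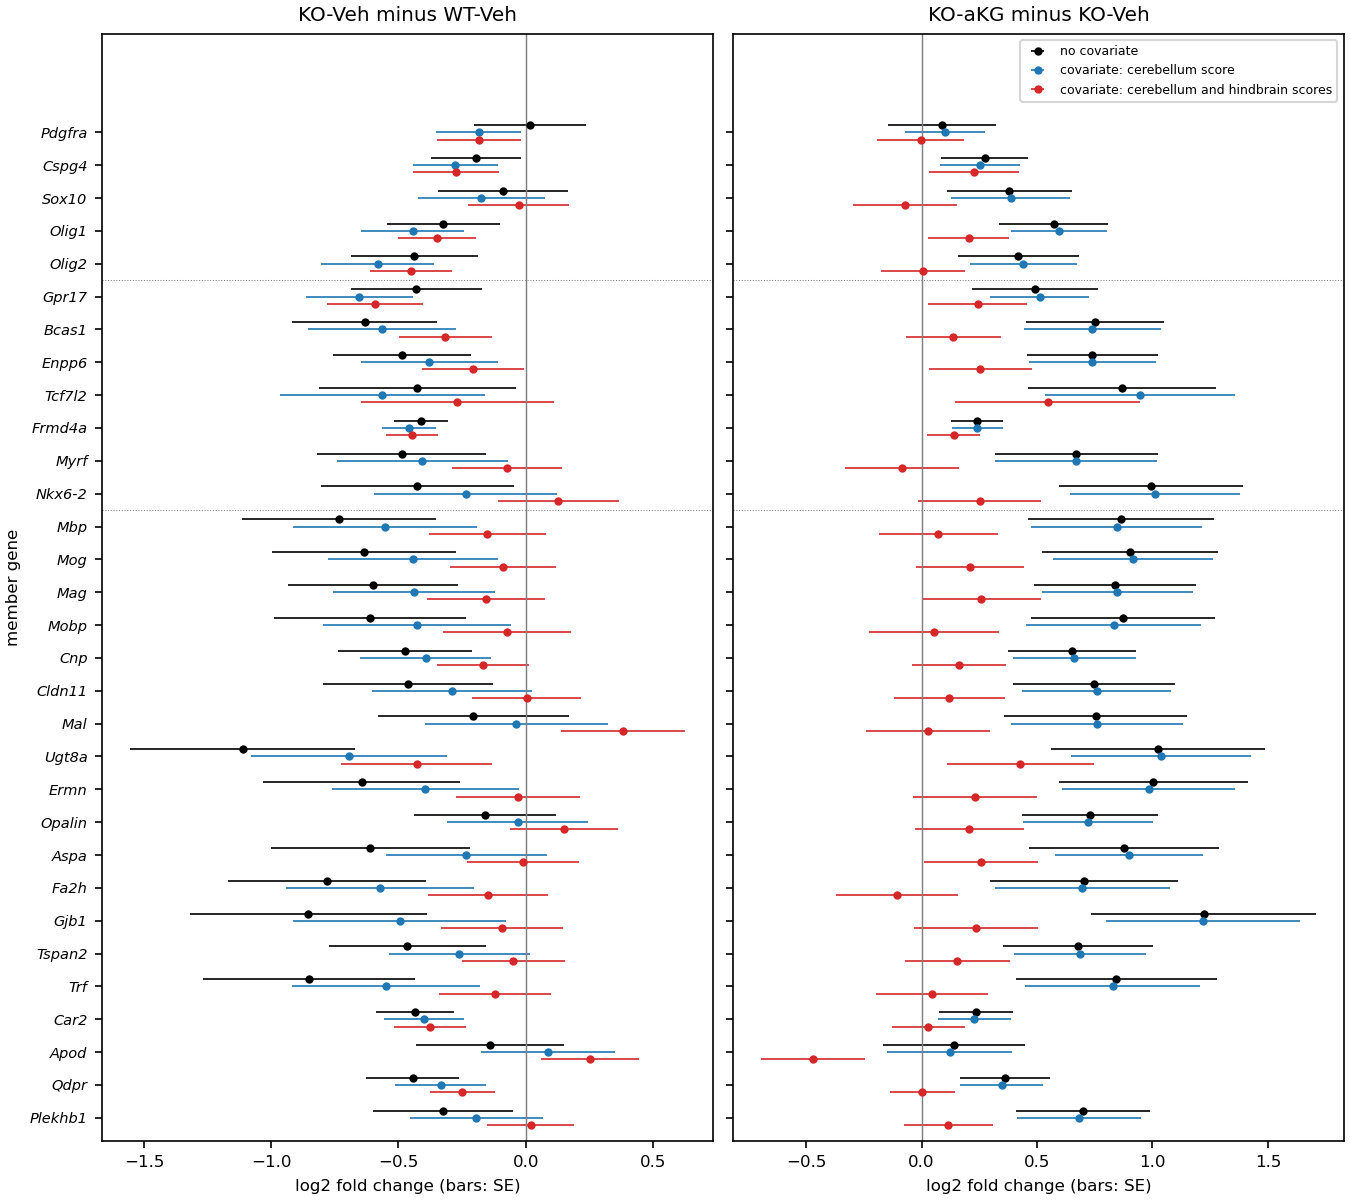
Log2 fold change with its standard error for each of the 31 members, for the knockout under vehicle (left) and for dm-αKG in the knockout (right), with no covariate, with the cerebellum score, and with the cerebellum and hindbrain scores as covariates. Under vehicle most members lie under 0 without a covariate, with a median of −0.46; in the knockout all 31 lie above 0, with a median of 0.73, and the median is 0.14 with both scores.

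The second question was what dm-αKG does in each genotype. In KO mice all 31 members had higher mean levels with dm-αKG than with vehicle, and 0 of 31 passed the test, as did 0% of all genes. DESeq2 also called 0 members, with no adjusted p given for 17 of them, and 20 genes in all. The median log2 difference was 0.73, against −0.0099 over all genes, and 19 of 31 members (61.3%) had an unadjusted p under 0.05 by edgeR, against 12.1% of all genes. The largest were those of Gjb1 (1.22, SE 0.49), Ugt8a (1.02, SE 0.46), Ermn, a cytoskeletal protein of myelin (1.00, SE 0.41), and Nkx6-2, a homeodomain factor of late differentiation (0.99, SE 0.40). Gjb1 ran from 5.54 through 8.61 to 30.6 CPM in KO-aKG, and Ugt8a from 47.5 through 81.7 to 278. Set beside the KO-Veh values above, the medians were higher and the ranges overlapped. Mbp ran from 1848 through 3256 to 8837 CPM in KO-Veh and from 4306 through 5740 to 12931 in KO-aKG. The lowest KO-aKG library thus lay above the KO-Veh median.

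The hindbrain markers also differed between KO-Veh and KO-aKG. The score was high in 4 libraries of KO-aKG and 0 of KO-Veh, so dm-αKG and hindbrain content cannot be told apart here. The hindbrain score ran from −1.86 to 0.47 in KO-Veh and from −1.63 to 3.39 in KO-aKG. Hoxb5, a gene of the hindbrain and spinal cord, reached at most 0.714 CPM in KO-Veh and 17.0 in KO-aKG. The value of 17.0 was in KO-aKG replicate 4, which was among the 5 highest libraries for 0 of the 31 members. Fitted with the cerebellum score, the members' median was 0.72, with 22 of 31 at an unadjusted p under 0.05, against 17.2% of all genes. With both scores it was 0.14, with 26 of 31 above 0 and 1 of 31 at an unadjusted p under 0.05, against 5.57% of all genes. With 5 region scores it was 0.034, with 19 above 0. Without the hindbrain-high libraries, which leaves 4 KO-aKG libraries against 10, the median was 0.36, with 30 of 31 above 0 and 4 members at an unadjusted p under 0.05, against 4.54% of all genes. With those libraries left out and the cerebellum score as covariate the median was 0.53, with 15 members at an unadjusted p under 0.05, against 12.5% of all genes. Without the cerebellum-high libraries the median was 0.88, with 25 members at an unadjusted p under 0.05, against 20.8% of all genes, and 0 of 31 passed by edgeR, as did 0% of all genes.

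In WT mice the members' median difference with dm-αKG was 0.12, with 22 of 31 above 0. By edgeR 0 of 31 passed, as did 0% of all genes, and 2 members had an unadjusted p under 0.05, against 8.55% of all genes. DESeq2 called 0 members and 90 genes. The 2 members were Tcf7l2, a transcription factor that acts in Wnt signalling (−0.87, SE 0.42), and Frmd4a (−0.28, SE 0.11), both lower with dm-αKG. Fitted with the cerebellum score the members' median was 0.051, with 20 above 0, and with both scores 0.054, with 16 above 0. Without the libraries high in cerebellum markers, which leaves 4 of WT-aKG and 7 of WT-Veh, it was −0.49, with 29 of 31 under 0 and 0 members at an unadjusted p under 0.05, against 6.87% of all genes. Without those high in hindbrain markers it was −0.044, with 19 under 0. The sign in WT mice thus differed with the libraries in the fit.

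The difference between the genotypes in the response to dm-αKG was above 0 for 31 of 31 members, with a median of 0.58. By edgeR 0 of 31 passed, as did 0% of all genes, while 3 members had an unadjusted p under 0.05, against 4.48% of all genes, and DESeq2 called 0. The 3 members were Frmd4a (0.52, SE 0.16), Tcf7l2 (1.74, SE 0.58) and Cspg4 (0.58, SE 0.27). With both region scores the median was 0.12, and with 5 region scores −0.047, with 18 of 31 under 0. Without the hindbrain-high libraries it was 0.46, with 2 members at an unadjusted p under 0.05, against 2.72% of all genes. Without the cerebellum-high libraries it was 1.5, with 23 members at an unadjusted p under 0.05, against 12.4% of all genes, and 0 of 31 passed by edgeR, as did 0% of all genes. These differences share the KO-Veh and WT-Veh libraries with the comparisons above, so the same low KO-Veh values enter each of them.

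**Figure D4:**
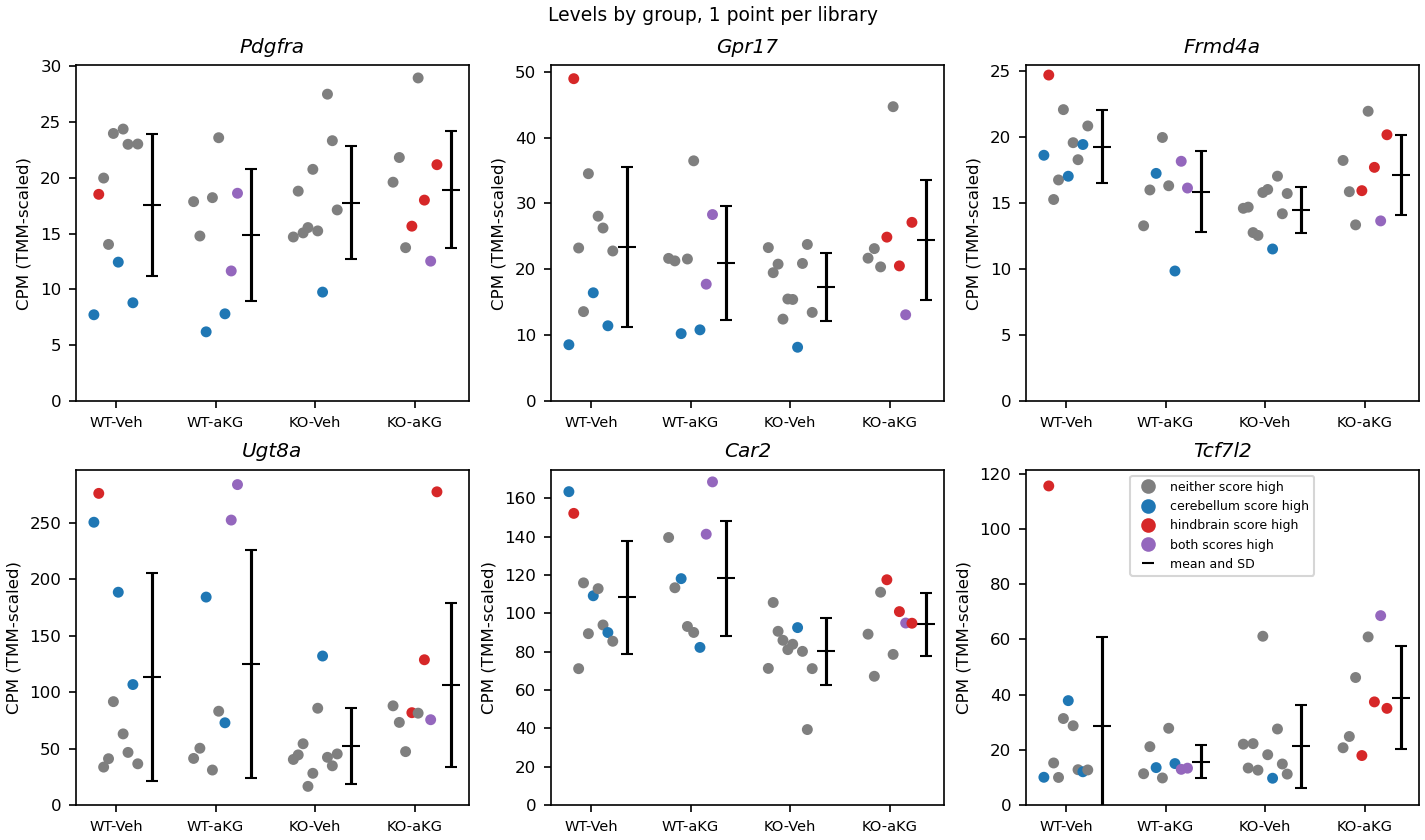
CPM of Pdgfra, Gpr17, Frmd4a, Ugt8a, Car2 and Tcf7l2 in each library by group, with the mean ± SD of each group and colours for the libraries high in cerebellum or hindbrain markers. Frmd4a is lower in KO-Veh, with a median of 14.7 CPM against 19.0 in WT-Veh, Car2 is lowest in KO-Veh replicate 9 at 39.4 CPM, and Tcf7l2 has single high libraries at 116 CPM in WT-Veh and 61.2 in KO-Veh.

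Under dm-αKG the genotypes differed in no member by the test. By edgeR 0 of 31 passed, against 1.87% of all genes, 1 member had an unadjusted p under 0.05, against 15.7% of all genes, and DESeq2 called 1 member and 510 genes. The median was 0.11, with 20 of 31 above 0. Fitted with the cerebellum score, the median was 0.23, with 26 above 0, and 0 of 31 passed, against 3.90% of all genes. With both scores it was −0.033, with 18 under 0, and with 5 region scores −0.16, with 22 under 0. Without the cerebellum-high libraries it was 0.80, with 30 above 0 and 10 members at an unadjusted p under 0.05, against 21.8% of all genes, and without the hindbrain-high libraries 0.23. The direction for the members thus differed with the region scores in the fit. The member with the low p was Tcf7l2. Its CPM ran from 9.85 through 13.5 to 27.8 in WT-aKG and from 17.97 through 36.2 to 68.6 in KO-aKG, a log2 fold change of 1.32 (SE 0.44, adjusted p = 0.119 by edgeR). It passed by DESeq2 (adjusted p = 0.0461) and with the 2 groups alone (1.32, adjusted p = 0.0302 by edgeR). In the vehicle groups it ran from 10.0 through 14.1 to 116 in WT and from 9.75 through 16.6 to 61.2 in KO. Tcf7l2 is also a gene of thalamic neurons. Its highest library, WT-Veh replicate 2, had the highest thalamus and midbrain score of all, 4.71. The Tcf7l2 difference under dm-αKG was 0.91 (SE 0.43, adjusted p = 0.275 by edgeR) with both region scores and 0.70 (SE 0.45, adjusted p = 0.455 by edgeR) with 5 region scores. The 5 are those of cerebellum, hindbrain, cortex, striatum and hypothalamus, and the part of the thalamus and midbrain in the difference was not tested. Frmd4a, lower in the knockout under vehicle, ran from 9.85 through 16.2 to 19.98 CPM in WT-aKG and from 13.4 through 16.8 to 21.97 in KO-aKG, a difference of 0.11 (SE 0.12).

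Averaged over vehicle and dm-αKG, 1 of 31 members was lower in the knockout, against 6.17% of all genes lower. This was Car2, a carbonic anhydrase that is abundant in oligodendrocytes and is also found in other brain cells (chr3:14886273-14900770 on the plus strand in the annotation of GRCm38). Its CPM ran from 71.2 through 102 to 164 in WT-Veh, from 82.3 through 116 to 169 in WT-aKG, from 39.4 through 82.5 to 106 in KO-Veh and from 67.2 through 95.0 to 118 in KO-aKG. The KO median was below the WT median under each treatment, and the ranges overlapped. The log2 fold change was −0.38 (SE 0.11, adjusted p = 0.0257 by edgeR), and the call is lost without WT-aKG replicate 8, without the libraries high in either region score, and with limma. Fitted with the cerebellum score, Car2 was again lower (−0.35, adjusted p = 0.046 by edgeR), against 6.93% of all genes lower, and the call is lost in 22 of the 36 fits that leave out 1 library. With both region scores Car2 (−0.40, adjusted p = 0.0115 by edgeR) and Qdpr, a dihydropteridine reductase (−0.32, adjusted p = 0.0291 by edgeR), were lower, against 6.90% of all genes lower. With 5 region scores 7 members were lower, against 9.26% of all genes lower. These were Olig1, Olig2, Gpr17, Bcas1, Frmd4a, Car2 and Qdpr, at −0.26 to −0.55. With the cerebellum score and without the hindbrain-high libraries Car2 did not pass, and Mal and Nkx6-2 were higher, against 4.96% of all genes higher. The calls thus differed with the region scores in the fit. For 0 of the 31 members did all libraries of one group lie above all of the other in any of the 4 comparisons of group pairs. Over all genes the share was 0.277% for the knockout under vehicle, 0.603% for the knockout under dm-αKG, 0.0800% for dm-αKG in WT and 0.0369% for dm-αKG in KO.

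The slope on the cerebellum score itself, in the fit with group means, was under 0 for every precursor member and above 0 for every mature member. The slopes of committed members went both ways. Of 31 members 19 changed with the score, 15 higher and 4 lower, where 57.4% of all genes changed, 29.0% higher and 28.4% lower. The total of 19 is thus near the background. The 4 that fell are precursor members and Gpr17, a committed member. Per unit of the score the log2 level of Pdgfra changed by −0.20 (SE 0.037, adjusted p = 2.37e-05 by edgeR), that of Gpr17 by −0.22 (SE 0.047, adjusted p = 0.000173 by edgeR), that of Olig2 by −0.16 and that of Olig1 by −0.14. The lowest Pdgfra values of the WT groups, 7.72 CPM in WT-Veh and 6.19 in WT-aKG, were in libraries high in cerebellum markers, while WT-aKG replicate 8, also high in them, held 18.6 CPM. Gpr17 ran from 8.54 through 23.0 to 49.0 CPM in WT-Veh, from 10.2 through 21.4 to 36.5 in WT-aKG, from 8.16 through 17.48 to 23.8 in KO-Veh and from 13.1 through 22.4 to 44.7 in KO-aKG.

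Of the 19 mature members 14 rose with the cerebellum score, as did Nkx6-2. The steepest were Gjb1 (0.31, SE 0.083), Ugt8a (0.31, SE 0.078), Aspa (0.30, SE 0.062, adjusted p = 8.56e-05 by edgeR) and Trf, the iron carrier transferrin (0.27, SE 0.076). The mature members that did not pass were Mobp, Cnp, Opalin, Car2 and Qdpr. Without the 9 libraries high in cerebellum markers 0 members passed, as did 0.654% of all genes. The slopes of Pdgfra, Olig1, Olig2 and Gpr17 were then 0.038 to 0.072 (SE 0.082 to 0.12), each within 1 SE of 0. The slopes of the 15 members that rose with the score were also above 0 there (0.18 to 0.39), with larger standard errors, as for Aspa (0.32, SE 0.19). The direction of the slopes of Pdgfra, Olig1, Olig2 and Gpr17 is thus not settled without those libraries. The members that rose kept their sign there and did not pass. Without KO-Veh replicate 7, 11 members passed, against 52.4% of all genes. With the hindbrain score added 10 passed, against 51.6% of all genes. Ugt8a, Aspa, Gjb1 and Trf were higher, and Pdgfra, Sox10, Olig1, Olig2, Gpr17 and Frmd4a were lower. With 5 region scores 9 were lower and 0 higher, against 7.99% of all genes lower.

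The hindbrain score was added because the libraries with the highest myelin values had the highest hindbrain score, so its slope describes what had been seen and is not independent of it. In the fit with both scores 25 of 31 members rose with the hindbrain score and 0 fell, where 8.63% of all genes changed, 5.88% higher. Of these, 18 of 19 were mature, 4 of 7 committed and 3 of 5 precursor members. The steepest were Gjb1 (0.38, SE 0.044, adjusted p = 3.61e-07 by edgeR), Trf (0.33, SE 0.041), Mbp (0.33, SE 0.046) and Fa2h (0.33, SE 0.045). Pdgfra and Cspg4, the surface markers of precursors, did not pass (0.046, SE 0.038 and 0.011, SE 0.038), and neither did Gpr17, Tcf7l2, Frmd4a and Car2. Without the 7 libraries high in hindbrain markers 0 members passed, as did 2 genes of all (0.0119%), and without WT-Veh replicate 2, 11 members passed, against 1.29% of all genes. In the same fit 0 of 6 microglial and 0 of 6 endothelial and mural markers passed, against 8.63% of all genes. These counts are near that background, and those of other cell types are not given here.

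**Figure D5:**
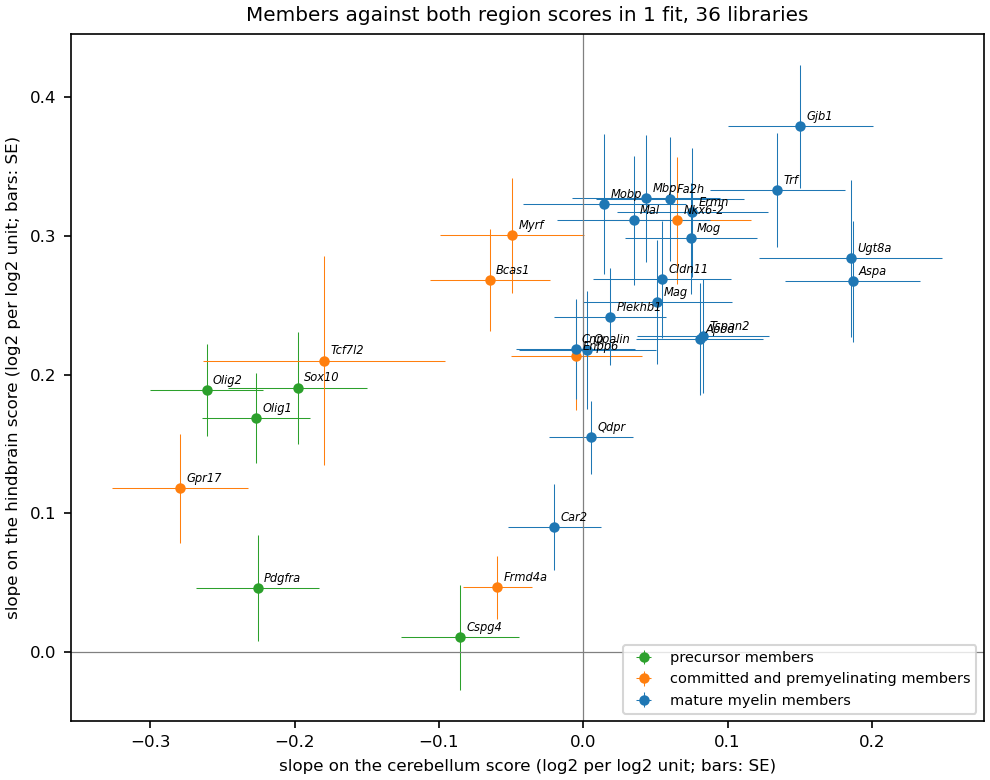
Slope of each of the 31 members on the cerebellum score (horizontal axis) and on the hindbrain score (vertical axis) in the fit that holds both, as log2 level per log2 unit of score with standard errors, coloured by stage. Slopes on the cerebellum score run from −0.28 for Gpr17 to 0.19 for Aspa, with all 5 precursor members under 0, and slopes on the hindbrain score are above 0 for all 31.

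Genes beside the members were grouped in the same way. Their genotype differences are from the fit without a covariate, and those with region scores are not given here. Of 25 other myelin genes 0 passed in the comparison of the genotypes under vehicle and 25 lay under 0, with a median of −0.51, close to the members' own −0.46. The 13 other precursor genes had a median of −0.25 and 0 passed, and the 12 genes of myelin sphingolipids a median of −0.12 and 0 passed. Genes of sterol synthesis, which supply the cholesterol of the membrane and are used by all brain cells, differed more in that fit. Of 19, 10 were lower in KO-Veh, against 1.72% of all genes lower, and 19 lay under 0, with a median of −0.62. They include Mvd (−0.76, SE 0.14), Lss (−0.69, SE 0.14), Fdps (−0.77, SE 0.17) and Hmgcs1 (−0.79, SE 0.18). Under dm-αKG 2 were lower, Mvk (−0.54, SE 0.14) and Tm7sf2 (−0.41, SE 0.11), against 0.751% of all genes. Averaged over treatments 15 were lower, against 6.17%, among them Sc5d, Lss, Cyp51 and Dhcr7. Of 12 axon-glia and node genes 1 was lower in each of these comparisons. It was Cntnap1, the paranodal protein of the axon, at −0.56 (SE 0.12) under vehicle, −0.52 (SE 0.13) under dm-αKG and −0.54 (SE 0.089) averaged. With the hindbrain score 22 of 25 other myelin genes and 14 of 19 sterol genes rose, where 5.88% of all genes rose in the fit with both scores. The 6 choroid plexus markers all lay under 0 in the knockout under vehicle, with a median of −0.95 and 0 passing, and their part in the members' differences was not tested.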

How the data were processed

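Each of the 36 libraries was prepared from oligo-dT primed RNA with barcodes and unique molecular identifiers and then tagmented, per the labels' protocols. The sources used here do not say whether identifiers were collapsed or strand was used in counting. The submitters' processing notes name the aligner HISAT2 2.2.1 and the counter featureCounts 2.0.6, beside Trim Galore 0.6.10, FastQC 0.12.1, deepTools and SAMtools 1.6, with the builds mm10 and mm39 and no roles. The authors deposited estimated counts for 56184 genes, which were rounded to whole numbers, and CPM values for 21637 genes. The deposited counts were 0 in every library for 19498 genes. When the deposited CPM values were turned into reads, 85.6% to 88.7% of values per library were whole within 0.02.

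The counts were scaled by TMM and tested with edgeR 4.0.16 in R 4.3.3 (robust quasi-likelihood test over all 36 libraries, filterByExpr, Benjamini-Hochberg adjustment over 16255 genes, threshold 0.05), without and with the cerebellum score as a linear term. CPM in the text are scaled by TMM. Scores are mean log2 CPM with a prior count of 2. Total counts limit the precision of low members such as Gjb1 and Cspg4. No 2 libraries of a group held identical values (0 of 146 pairs). On simulated data for the knockout under vehicle with the cerebellum score, run on 16255 genes, 99.5% of 200 genes changed by 1 log2 unit were recovered and 4.33% of calls were false. For the cerebellum slope, 100% of 200 genes with a slope of 0.3 were recovered and 5.21% of calls were false, again on 16255 genes. Recovery at the spread of the members themselves was not tested, so these shares do not apply to them. Under vehicle with the cerebellum score, the SE was 0.38 for Ugt8a and 0.42 for Gjb1, against 0.11 for Frmd4a. Without the score, Ugt8a at −1.11 (SE 0.44) did not pass.

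The members and lists were chosen with earlier results of these data known. The text gives values for the members that passed a comparison of groups and for the 2 per stage with the largest difference under vehicle. Pdgfra, Gpr17, Mbp and Tcf7l2 were added after their values were seen. Of other lists it names at most 4 genes per comparison, by adjusted p. Alternatives were DESeq2 1.42.0, RLE factors, no filter, limma 3.58.1 on log2 of the deposited CPM with pseudocounts of 0.5 and 1 (genes with a mean CPM of at least 0.5), the groups of a comparison alone, other region scores, and leaving out libraries.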

Additional observations from a re-analysis of the deposited data

Results flagged for a closer look

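In each group of 8 or 10 libraries, the highest and lowest value of each member were compared with the next one by Dixon's ratio. Chance exceeds its limit in about 1 of 20 groups of normally distributed values. The ratio was taken on CPM, where high values stand out further than on the log2 scale, so that rate need not hold here. Of 124 such tests 49 exceeded the limit, and they share libraries. WT-Veh replicate 2, the library with the high hindbrain score in its group, stood above the other WT-Veh libraries for 21 members. Its values in CPM were 37.3 for Sox10, 356 for Olig1 and 68.7 for Olig2 among precursor members. Among committed members they were 330 for Bcas1, 41.3 for Enpp6, 116 for Tcf7l2, 36.3 for Myrf and 40.4 for Nkx6-2. Among mature members they were 21235 for Mbp, 413 for Mog, 311 for Mag, 4179 for Mobp, 740 for Cnp, 530 for Cldn11, 829 for Mal, 105 for Ermn, 50.9 for Opalin, 93.3 for Fa2h, 384 for Tspan2, 141 for Qdpr and 380 for Plekhb1. The next highest WT-Veh values were 8150 CPM for Mbp, in replicate 6, and 186.65 CPM for Mog, in replicate 1.

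KO-Veh replicate 7, the KO-Veh library with a high cerebellum score, stood above its group for 12 members. They were Nkx6-2 (22.1 CPM), Mbp (8837), Mog (193), Cnp (346), Cldn11 (271), Mal (442), Ermn (47.8), Aspa (38.9), Gjb1 (14.3), Tspan2 (222), Trf (107) and Plekhb1 (225). KO-aKG replicate 8 stood above its group for 8 members, which were Mog (351 CPM), Mag (268), Cldn11 (494), Mal (799), Ugt8a (278), Opalin (62.1), Tspan2 (410.25) and Trf (174). WT-aKG replicate 8 did so for Myrf (27.3 CPM), Mag (289), Cnp (610) and Apod (268). KO-aKG replicate 5, the library with the fewest counts, was high in the early genes Cspg4 (10.3 CPM) and Gpr17 (44.7). KO-Veh replicate 5 was high in Tcf7l2 (61.2 CPM), and KO-Veh replicate 9 was low in Car2 (39.4 CPM, against 71.2 in the next library).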

How the results depend on the processing

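Counts listed here without a share of all genes are not set against a background. The number of members called in the knockout under vehicle was 0 with no filter, with limma on the deposited CPM (both pseudocounts) and without the libraries high in hindbrain markers. It was 3 with 5 region scores, all lower, against 6.02% of all genes lower. The count with the cerebellum score was 2 by DESeq2, which called 1252 genes in all. It was 0 by limma (both pseudocounts) and without the libraries high in cerebellum markers, and the same 3 with 5 region scores. Under dm-αKG the count was 1 by DESeq2 (of 510 genes called in all), with the 2 groups alone and with a replicate block. Including the cerebellum score it was 1 with the 2 groups alone, with a replicate block and by limma (both pseudocounts). Averaged over treatments it was 0 without the cerebellum-high or hindbrain-high libraries and by limma (both pseudocounts). It was 7 with 5 region scores, against 9.26% of all genes lower, and 2 with both scores, against 6.90% lower. Including the cerebellum score it was 0 with no filter, with a replicate block, without the cerebellum-high libraries and by limma (both pseudocounts). It was again 7 with 5 region scores and 2 with both scores. Without the hindbrain-high libraries it was 2, both higher, against 4.96% of all genes higher. With 1 library left out the range was 0 to 2 under vehicle (1 to 2 with the cerebellum score), 0 to 1 under dm-αKG with and without it, 0 to 2 averaged with and without it, and 0 for both effects of dm-αKG and for their difference. Without the cerebellum score the libraries that moved a count were WT-Veh replicate 2 in all 3 comparisons of genotype, KO-Veh replicate 7 under vehicle and averaged, and WT-aKG replicates 4 and 8 averaged. No call changed under RLE factors in these comparisons.

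The slope on the cerebellum score passed for 0 members without the cerebellum-high libraries (0.654% of all genes). It passed for 9 with 5 region scores, all lower (7.99% of all genes lower), and 10 with both scores (51.6% of all genes). With 1 library left out it passed for 11 to 26, the 11 without KO-Veh replicate 7 (52.4% of all genes). Without the cerebellum-high libraries it was 0.072 for Pdgfra, 0.072 for Olig1, 0.038 for Olig2 and 0.046 for Gpr17. With 5 region scores it was −0.12 for Nkx6-2, −0.11 for Mbp, −0.058 for Mog, −0.062 for Mag, −0.075 for Cldn11, −0.11 for Mal, −0.060 for Ugt8a, −0.097 for Ermn, −0.031 for Aspa, −0.053 for Fa2h, −0.034 for Gjb1, −0.029 for Tspan2, −0.075 for Trf and −0.094 for Plekhb1. With 1 library left out the slope on the hindbrain score passed for 11 to 27 members, the 11 without WT-Veh replicate 2 (1.29% of all genes). It passed for 0 without the hindbrain-high libraries (0.0119% of all genes). Without those libraries it was −0.062 for Sox10, −0.016 for Olig1, −0.053 for Myrf and −0.057 for Mag. The cause of these changes was not tested. Limma on deposited CPM, which are not scaled by TMM, moved the median of all genes by up to 0.21 on the log2 scale.

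Replicate numbers were not used to pair the libraries in the main fits, and the values do not settle whether they mark pairs. Deviations of 50 same-number pairs correlated at −0.767 to 0.879, 26 of them above 0.1. Their median was 0.127, against −0.018 for other pairs, and 9 of 36 libraries correlated best with their own number.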
